A study of Mus musculus with 28 samples.

Results

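The genes described here are 6 members of the machinery that writes and keeps CpG methylation: Dnmt1, Uhrf1, Hells, Dnmt3a, Dnmt3b and Dnmt3l. They were chosen by name from the 37991 genes in the count files, and all 6 were among the 20321 genes tested. Naive mouse embryonic stem cells (mESCs) of cell line J1, strain 129S4/SvJae, were compared with a line knockout for Dnmt1, Dnmt3a and Dnmt3b (DNMT TKO) and a line knockout for Tet1, Tet2 and Tet3 (TET TKO). Every line was grown in N2B27 medium with LIF and 2i, a pair of inhibitors of MEK and GSK3. Every line was transduced with a lentiviral pLKO vector that was empty (shEmpty) or carried a hairpin against Kap1 (shKap1), selected with puromycin and collected after 5 days. RNA-seq covered 3 libraries per hairpin in WT and DNMT TKO and 2 in TET TKO. Each genotype was a single line, and both mutant lines came from other laboratories, so genotype and line cannot be told apart. The study describes the replicates as separate experiments on the same line, so the p-values measure the spread between experiments and not between lines. WT cells were also profiled by ChIP-seq for H3K4me3 and H3K27me3 and by hMeDIP-seq for 5-hydroxymethylcytosine (5hmC).

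DNMT1 copies methylation onto the new strand after replication, and is brought there by UHRF1, which binds hemimethylated CpGs. HELLS is a chromatin remodeller that helps methylation reach nucleosomal DNA. DNMT3A and DNMT3B methylate unmodified CpGs, and DNMT3L, which has no catalytic activity of its own, stimulates them. Naive mESCs in 2i are known for low global methylation. KAP1 (Trim28) is the corepressor of KRAB zinc finger proteins.

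The hairpin against Kap1 is shown because it is the treatment of every knockdown comparison, with its target sense strand in capitals. Its 21-base target matched the transcripts of 1 gene, Trim28, and the longest run of target bases found in any member was 8.
shKAP1: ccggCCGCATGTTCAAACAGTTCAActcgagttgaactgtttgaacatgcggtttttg

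The deposited KAP1 regions met 1 of the 6 members, Dnmt3a, at 2 places. Stretches of 300 bases of both are shown on the plus strand of mm9 because they differ in base composition. The first, chr12:3806603-3806902, lies in the region near the gene start and holds 47 CpGs, and the second, chr12:3825274-3825573, lies in an intron and holds 0. The second is the centre of its region, while the first begins after an exon that the centre holds. The median over the central 300 bases of the KAP1 regions was 9 CpGs.
Dnmt3a KAP1 region near the start: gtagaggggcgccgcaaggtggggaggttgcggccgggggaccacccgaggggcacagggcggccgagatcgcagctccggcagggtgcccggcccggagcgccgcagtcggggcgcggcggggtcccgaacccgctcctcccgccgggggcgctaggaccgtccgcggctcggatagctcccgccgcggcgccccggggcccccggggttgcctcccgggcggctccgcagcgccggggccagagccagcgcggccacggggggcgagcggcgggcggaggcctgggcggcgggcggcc
Dnmt3a intronic KAP1 region: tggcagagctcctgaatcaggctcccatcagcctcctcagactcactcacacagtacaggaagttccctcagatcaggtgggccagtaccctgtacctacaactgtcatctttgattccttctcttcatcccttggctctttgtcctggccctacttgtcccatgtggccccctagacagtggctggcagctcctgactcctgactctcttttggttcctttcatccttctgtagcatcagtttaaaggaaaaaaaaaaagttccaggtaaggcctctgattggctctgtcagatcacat

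The promoter of Hells, chr19:39005155-39005434 on the plus strand of mm9, is shown because it alone of the 6 promoter windows held an E2F motif that was searched for. The motifs were TTTCCCGC and TTTGGCGC on both strands, and the match is in capitals. Of 20320 promoter windows of 280 bases (250 before the gene start and 30 from it on), 1.41% held the first, 0.733% the second and 2.11% either. A match describes letters in the window and not binding.
Hells promoter: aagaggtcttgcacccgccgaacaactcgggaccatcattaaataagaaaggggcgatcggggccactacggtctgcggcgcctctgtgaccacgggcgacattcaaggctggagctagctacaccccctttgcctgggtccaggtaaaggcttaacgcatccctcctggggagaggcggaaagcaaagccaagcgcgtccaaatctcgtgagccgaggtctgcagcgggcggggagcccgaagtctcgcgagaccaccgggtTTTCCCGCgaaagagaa

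Libraries held 18108431 to 29373696 reads on genes. Kap1 itself fell in all 3 lines. Its level, in CPM (counts scaled to a common library size by TMM), went from 1752 ± 207 to 165 ± 21.9 in WT (SD, n = 3), from 1868 ± 197 to 427 ± 91.5 in DNMT TKO (SD, n = 3) and from 1835 ± 89.8 to 166 ± 3.84 in TET TKO (SD, n = 2). The knockdown was smaller in DNMT TKO than in WT, with a difference of log2 effects of 1.28 ± 0.21 (SE; adjusted p = 0.000803 by edgeR's quasi-likelihood test with Benjamini-Hochberg adjustment). In TET TKO shEmpty, Tet1 was at 233 CPM against 654 in WT, Tet2 at 91.1 against 408, and Tet3 at 13.8 against 13.9, so the counts of Tet3 did not separate the lines. Replicate 1 of WT and of DNMT TKO stood apart from replicates 2 and 3 of its groups. The chi-square per degree of freedom was 12.3 to 16.96 for pairs with replicate 1 and 1.90 to 6.58 for the other pairs of these groups. The largest value, 51.06, was that of the pair of TET TKO shEmpty libraries, which enter each TET TKO comparison, against 1.76 for the TET TKO shKap1 pair. The stem cell markers were present, with summed levels of 4215 to 4518 CPM in WT shEmpty and 2479 to 2624 in WT shKap1, and 6 of 7 tested fell in WT, among them Dppa5a (log2 change -1.38) and Sox2 (-1.34). With shEmpty and shKap1 these sums were 4053 to 4316 and 2670 to 3069 CPM in DNMT TKO, and 4013 to 4364 and 3092 to 3152 in TET TKO, where 5 of 7 fell in each line. Markers of the 2-cell state, a rare state of mESC cultures, rose in every line, with 5 of 5 tested passing. Their summed level went from between 10.8 and 20.7 CPM to between 160 and 178 in WT, from between 4.93 and 15.8 to between 49.2 and 108 in DNMT TKO, and from between 7.13 and 7.93 to between 477 and 490 in TET TKO. The log2 change of Zscan4c, whose near-identical copies may share its reads, was 3.28, 2.91 and 5.92 in these lines, and the effect was larger in TET TKO than in WT for 3 of the 5. Summed feeder fibroblast markers were at 3.15 to 5.499 CPM in WT, 5.69 to 8.33 in DNMT TKO shEmpty, 10.999 to 11.6 in DNMT TKO shKap1 and 4.93 to 7.59 in TET TKO. Summed mesoderm markers were lower with shKap1 in each line, at 2.52 to 2.99 CPM against 4.21 to 6.05 in WT. Those of formative and primed cells were at 24.1 to 24.4 CPM with shKap1 and 15.2 to 16.3 with shEmpty in TET TKO. In DNMT TKO these sums were lower with shKap1, at 18.4 to 20.9 CPM against 21.97 to 24.8. In WT they overlapped, at 15.2 to 23.96 CPM with shKap1 and 14.8 to 34.7 with shEmpty. Of the 5 such markers tested, 1 rose and 2 fell in WT, and 1 rose and 1 fell in DNMT TKO. In TET TKO 1 rose and 0 fell. Endoderm sums were higher with shKap1 in each line, at 11.5 to 13.5 CPM against 8.05 to 9.70 in WT, 7.27 to 9.26 against 4.01 to 6.48 in DNMT TKO and 12.5 to 12.6 against 10.6 to 11.9 in TET TKO. Of the 5 endoderm markers, 2 rose and 1 fell in WT (median log2 change 0.45). In DNMT TKO 1 rose and 0 fell (0.10), and in TET TKO 0 rose and 0 fell, with a median of -0.76. The part of these markers in the changes below was not tested, and fewer cells of a type cannot be told apart from less RNA per cell.

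Per kilobase of summed exons, the level in WT shEmpty was highest for Uhrf1 at 209 ± 3.93 RPKM (CPM divided by kilobases of exon; SD, n = 3). Dnmt1 followed at 93.0 ± 3.80 and Hells at 86.5 ± 2.17 RPKM. Dnmt3b was at 30.5 ± 6.20, Dnmt3l at 18.6 ± 6.03 and Dnmt3a at 3.79 ± 0.66 RPKM. The maintenance genes therefore stood above the de novo genes on this scale. The summed exons of Dnmt3a span 16642 bases over 18 transcripts, which lowers its value per kilobase if the long forms are not made.

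**Figure D1:**
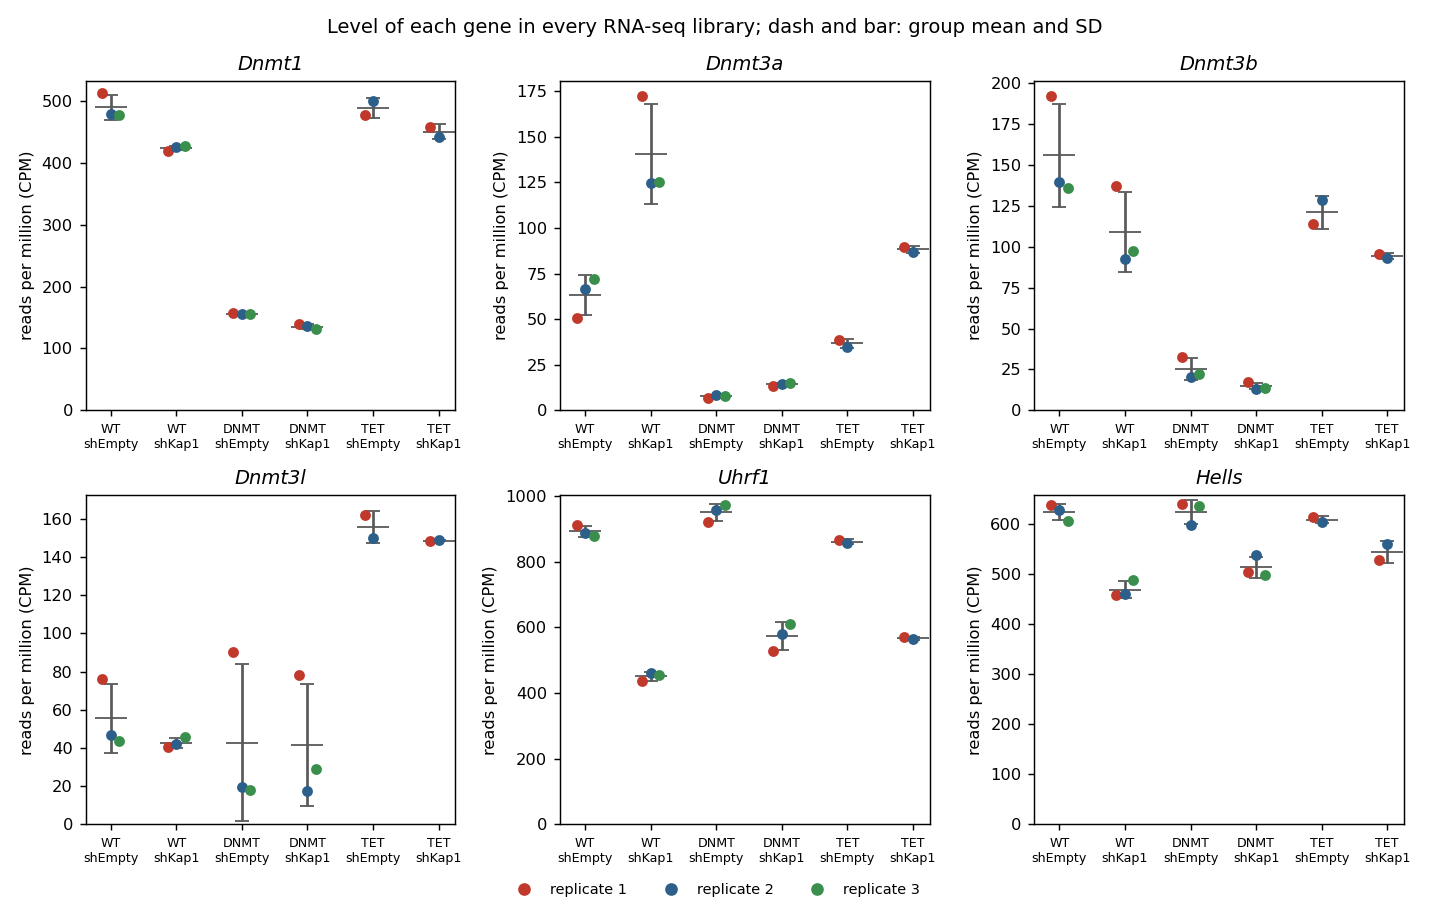
Level of each gene in CPM (y axis, from 0) in the 16 RNA-seq libraries, by line and hairpin (x axis), with replicates in colour and the group mean and SD in grey. Uhrf1 lay at 877 to 910 CPM in WT shEmpty and 436 to 461 in WT shKap1, and Dnmt3l in DNMT TKO shEmpty lay at 90.2 in replicate 1 and 18.2 to 19.7 in replicates 2 and 3.

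Kap1 knockdown in WT cells asked how these genes respond to loss of the corepressor. Of the 6 genes, 1 rose (Dnmt3a) and 4 fell (Uhrf1, Hells, Dnmt1 and Dnmt3b), where 45.7% of all genes tested passed in either direction, 23.0% higher and 22.7% lower. The median log2 change was -0.39 over the 6 and -0.01 over all genes tested. In DNMT TKO the same counts were 1 higher and 4 lower, beside a background of 35.3% (19.7% higher and 15.6% lower). In TET TKO 1 rose and 2 fell, beside 30.4% (15.3% and 15.1%).

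Uhrf1, the reader of hemimethylated CpGs, was at 910, 888 and 877 CPM in the 3 WT shEmpty libraries and at 436, 461 and 454 in shKap1. The groups did not overlap, and the fall was 1.98-fold (log2 change -0.99 ± 0.051 SE, adjusted p = 7.19e-11 by edgeR's quasi-likelihood test with Benjamini-Hochberg adjustment). In DNMT TKO it was at 922, 957 and 971 CPM with shEmpty and 529, 580 and 611 with shKap1, a log2 change of -0.73 ± 0.051 (adjusted p = 7.28e-09). In TET TKO it was at 866 and 856 against 569 and 564 CPM, a change of -0.60 ± 0.062 (adjusted p = 7.59e-07). All shKap1 libraries of each line lay below all its shEmpty libraries. The fall was smaller in DNMT TKO than in WT by 0.26 ± 0.071 (adjusted p = 0.0169) and in TET TKO by 0.38 ± 0.080 (adjusted p = 0.00490). The first of these differences lost its call in 11 of 25 alternatives, and the second in 0 of 25. Without replicate 3 of DNMT TKO shKap1 the first was 0.16 (adjusted p = 0.176). Kap1 itself fell less in DNMT TKO than in WT. In TET TKO the knockdown of Kap1 differed from WT by -0.06 ± 0.23 (SE, 95% interval -0.51 to 0.39). The part of knockdown strength in either difference of Uhrf1 was not tested.

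Reads over repeat intervals on the strand of Uhrf1 were also deposited. Reads at its 3′ UTR are in part those of the exon count, and the last of 3 repeats there runs past the annotated gene end. Summed over these 3, the reads went from 76.1 ± 3.37 to 42.3 ± 1.65 CPM of the reads on genes, without TMM, in WT (SD, n = 3). Over 14 intronic repeats they went from 5.22 ± 0.39 to 3.84 ± 0.34, from 92 to 162 reads per library in shEmpty and 63 to 92 in shKap1. Both sums separated the hairpins in WT. The RNA was poly(A)-selected, so intronic reads are few and no test was made on them.

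Hells, the remodeller, was at 637, 627 and 606 CPM in WT shEmpty and at 458, 461 and 488 in shKap1. It fell with a log2 change of -0.41 ± 0.048 (adjusted p = 1.78e-06 by edgeR's quasi-likelihood test with Benjamini-Hochberg adjustment), and the groups did not overlap. In DNMT TKO it went from 639, 597 and 636 to 503, 537 and 498 CPM (log2 change -0.28 ± 0.048, adjusted p = 0.000183). In TET TKO it went from 613 and 603 to 528 and 560 CPM, a change of -0.16 ± 0.059 with an adjusted p of 0.0461 that did not stay below the threshold in 17 of 25 alternatives. Its fall was smaller in TET TKO than in WT by 0.25 ± 0.076 (adjusted p = 0.0477), a call lost in 15 of 25 alternatives. Between DNMT TKO and WT the difference was 0.13 ± 0.068 (adjusted p = 0.224). Over 56 intronic repeats of Hells the sums were 9.70 ± 1.05 and 9.10 ± 0.53 on the same scale in WT (SD, n = 3), and these overlapped.

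Dnmt1, the maintenance enzyme, moved least among the genes that fell. It was at 513, 479 and 478 CPM in WT shEmpty and 420, 425 and 426 in shKap1, a log2 change of -0.21 ± 0.045 (adjusted p = 0.000852 by edgeR's quasi-likelihood test with Benjamini-Hochberg adjustment). In DNMT TKO the remaining transcript went from 157, 156 and 156 to 139, 135 and 132 CPM (log2 change -0.21 ± 0.045, adjusted p = 0.00161). In TET TKO the values were 477 and 500 against 458 and 441 CPM (log2 change -0.12 ± 0.055, adjusted p = 0.114). The libraries of the 2 hairpins did not overlap in any line, but TET TKO held 2 libraries per hairpin. How many of all genes tested separate in this way was not counted.

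Dnmt3a, a de novo enzyme, rose in all 3 lines. In WT it was at 50.8, 66.5 and 71.9 CPM with shEmpty and at 172, 124 and 125 with shKap1, a 2.22-fold rise (log2 change 1.15 ± 0.13, adjusted p = 5.16e-06 by edgeR's quasi-likelihood test with Benjamini-Hochberg adjustment). Replicate 1 was the lowest library of the first group and the highest of the second. In TET TKO it went from 38.6 and 34.9 to 89.6 and 87.1 CPM (log2 change 1.26 ± 0.17, adjusted p = 3.88e-05). In DNMT TKO, where the gene is mutant, it went from 6.55, 8.49 and 7.90 to 13.1, 14.4 and 15.2 CPM (log2 change 0.89 ± 0.16, adjusted p = 0.000673). The rise did not differ detectably from WT in DNMT TKO (-0.27, 95% interval -0.68 to 0.15) or in TET TKO (0.11, -0.31 to 0.53). With replicate 1 of WT and of DNMT TKO left out, an alternative chosen after seeing the data, the rise was larger in TET TKO than in WT by 0.41 (adjusted p = 0.000110).

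Dnmt3b, the other de novo enzyme, fell in WT from 192, 140 and 136 to 137, 92.8 and 97.2 CPM. The groups overlapped at the lowest shEmpty and the highest shKap1 library, while each shKap1 library lay below the shEmpty library of its own replicate number, and replicate 1 was highest in both groups. The log2 change of -0.51 ± 0.19 had an adjusted p of 0.0479 by edgeR's quasi-likelihood test with Benjamini-Hochberg adjustment. That call was lost in 16 of 25 alternatives and held with the replicate block (adjusted p = 0.00672). Without replicate 1 of WT shEmpty the change was -0.34 (adjusted p = 0.188). In DNMT TKO it fell from 32.9, 20.2 and 22.4 to 17.2, 13.4 and 13.9 CPM (log2 change -0.75 ± 0.22, adjusted p = 0.0199), a call lost in 3 of 25. These 3 each left out a library of the groups compared: replicate 1 of shEmpty, or replicate 2 or 3 of shKap1. In TET TKO Dnmt3b was at 114 and 128 against 95.5 and 93.0 CPM (log2 change -0.36, 95% interval -0.83 to 0.10, adjusted p = 0.296). There it passed with only the libraries of both groups (-0.33, adjusted p = 0.000173) and with replicate 1 of WT and of DNMT TKO left out (-0.35, adjusted p = 2.11e-06). The second setting was chosen after seeing the data and left out no TET TKO library. The spread is estimated over all libraries of a fit, so that p depends on libraries outside this comparison.

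Dnmt3l, the cofactor without catalysis, gave no call for the knockdown in any line. In WT it was at 76.3, 47.1 and 43.5 CPM with shEmpty and 40.8, 42.0 and 45.8 with shKap1 (log2 change -0.37, 95% interval -1.63 to 0.90, adjusted p = 0.689 by edgeR's quasi-likelihood test with Benjamini-Hochberg adjustment). In DNMT TKO it was at 90.2, 19.7 and 18.2 against 78.1, 17.6 and 29.1 CPM, and in TET TKO at 162 and 150 against 148 and 149 CPM. Replicate 1 was the highest library in 3 of the 4 groups of WT and DNMT TKO. Its SD within groups, 0.78 on the log2 scale, was at the 99.9th percentile of 8300 genes, against 0.038 and the 2.41st percentile for Dnmt1. A change of the size seen for Dnmt1 was therefore not detectable for Dnmt3l in these libraries.

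**Figure D2:**
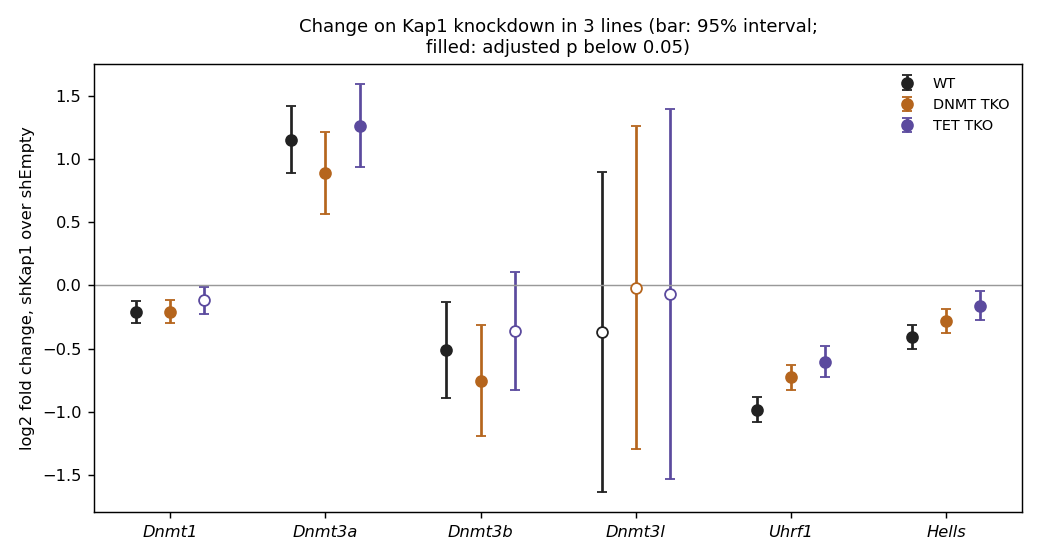
Log2 fold change of shKap1 over shEmpty (y axis) for the 6 genes (x axis) in 3 lines, with bars for 95% intervals and filled points where the adjusted p was below 0.05. Dnmt3a rose by 0.89 to 1.26, Uhrf1 changed by -0.99 to -0.60, and the bars of Dnmt3l run from -1.63 to 1.40.

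The S phase genes are replication factors that rise together as cells enter S phase, and Uhrf1, Hells and Dnmt1 are known to be expressed with them. Of 24 such genes, 21 fell and 1 rose on knockdown in WT, with a median log2 change of -0.38, beside -0.01 over all genes tested. Rrm1, a subunit of ribonucleotide reductase, changed by -0.94 ± 0.058 and Cdc6, a replication licensing factor, by -0.78 ± 0.058. In DNMT TKO 17 fell and 2 rose (median -0.27), and in TET TKO 12 fell and 3 rose (median -0.20). The count that fell in TET TKO was 4 and 7 without replicates 1 and 2 of its shKap1 group, 5 without replicate 2 of its shEmpty group and 7 with scaling to total reads. Uhrf1 fell by more than the median of the list in each line, Hells lay near it and Dnmt1 above it. Of 12 genes of G2 and mitosis, 10 fell and 2 rose in WT, among them Top2a (-0.53 ± 0.049) and Aurkb (-0.45 ± 0.061), both acting on mitotic chromosomes. In DNMT TKO 4 fell and 1 rose (median -0.11), and in TET TKO 3 fell and 1 rose (median -0.01, beside -0.01 over all genes tested), against a median of -0.32 in WT. Of 10 arrest and p53 target genes, 4 rose and 3 fell in WT. Only 1 rose at least 2-fold, the cell cycle inhibitor Cdkn1c (1.39 ± 0.46), which does not stand for the list. In DNMT TKO 5 rose and 1 fell (median 0.20), and in TET TKO 2 rose and 1 fell (median -0.01), against a median of 0.33 in WT. Beside these lists, 23.0% of all genes tested rose and 22.7% fell in WT. The shares were 19.7% and 15.6% in DNMT TKO, and 15.3% and 15.1% in TET TKO. The S phase genes moved with Uhrf1, Hells and Dnmt1, and the part of cycling in their changes was not tested.

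**Figure D3:**
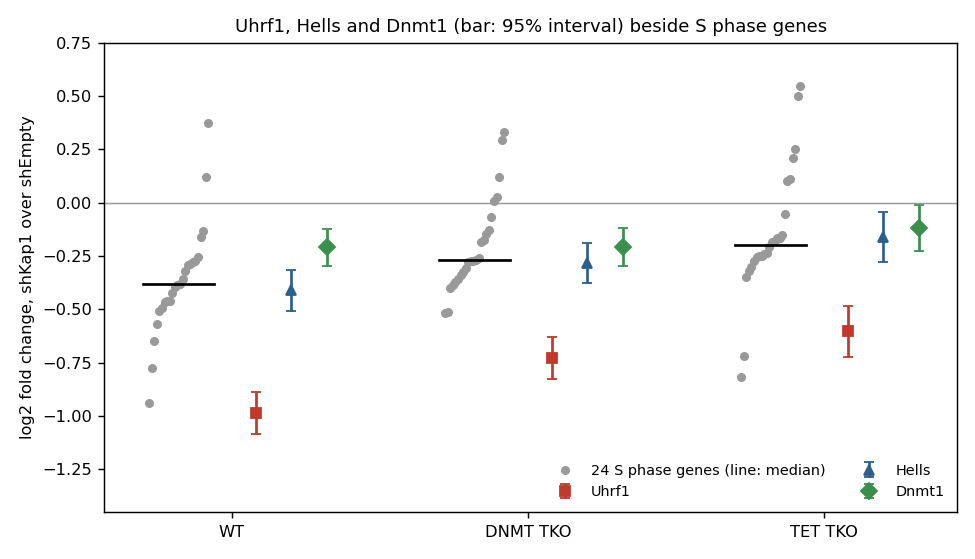
Log2 fold change of shKap1 over shEmpty (y axis) in the 3 lines (x axis) for 24 S phase genes (grey points, line at the median) and for Uhrf1, Hells and Dnmt1 with bars for 95% intervals. The medians were -0.38, -0.27 and -0.20, and Uhrf1 lay at -0.99, -0.73 and -0.60.

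Of 12 partners of maintenance, 8 fell and 1 rose in WT, 6 fell and 2 rose in DNMT TKO, and 3 fell and 1 rose in TET TKO, where 22.7%, 15.6% and 15.1% of all genes tested fell. Hdac2, a histone deacetylase, changed by -0.50 ± 0.062 and Pcna, the sliding clamp that holds DNMT1 at replication sites, by -0.44 ± 0.066 in WT. Of 10 methyl-CpG readers, 7 rose and 0 fell in WT, where 23.0% of all genes tested rose, led by Mbd1 (1.49 ± 0.096) and Zbtb4 (0.98 ± 0.25), while 2 rose and 1 fell in DNMT TKO and 2 rose and 0 fell in TET TKO (19.7% and 15.3% of all genes rose there). Of 13 regulators of de novo methylation, 4 rose and 6 fell in WT, 1 rose and 6 fell in DNMT TKO, and 2 rose and 5 fell in TET TKO, against the shares of all genes given above. Pramel7, known to promote loss of UHRF1 protein, changed by -6.11 ± 0.49, and Prdm14, a repressor of the Dnmt3 genes in naive cells, by -2.83 ± 0.15. The mean of Pramel7 in WT went from 11.5 to 0.16 CPM, so the size of its change there rests on a level near the floor. In DNMT TKO Pramel7 changed by -1.13 ± 0.25 and Prdm14 by -0.57 ± 0.13, and in TET TKO by -2.47 ± 0.31 and -1.79 ± 0.17.

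Loss of the DNMT genes was compared with WT under shEmpty. Of the 6 genes, 3 fell, and these were the 3 targeted ones, beside a background of 43.6% passing in either direction (20.5% higher and 23.1% lower). Dnmt1 fell to 156 ± 0.74 CPM from 490 ± 20.0 (SD, n = 3; log2 change -1.65 ± 0.046, adjusted p = 1.01e-14 by edgeR's quasi-likelihood test with Benjamini-Hochberg adjustment). Dnmt3a fell to 7.65 ± 1.00 from 63.0 ± 10.98 CPM (log2 change -3.04 ± 0.16, adjusted p = 8.72e-10). Dnmt3b fell to 25.2 ± 6.79 from 156 ± 31.6 CPM (log2 change -2.64 ± 0.21, adjusted p = 6.20e-07). None of the targeted transcripts was at 0, and the remaining levels differed between the 3.

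Uhrf1 and Hells, which are intact in this line, stayed near their WT levels. Hells was at 624 ± 23.5 CPM against 623 ± 15.7 (SD, n = 3; log2 difference 0.00, 95% interval -0.09 to 0.10). Uhrf1 was at 950 ± 25.4 against 892 ± 16.7 CPM, a log2 difference of 0.09 (95% interval -0.01 to 0.19, adjusted p = 0.155 by edgeR's quasi-likelihood test with Benjamini-Hochberg adjustment), although all DNMT TKO libraries lay above all WT libraries. It passed with DESeq2 (0.13, adjusted p = 0.0300) and with replicate 1 of WT and of DNMT TKO left out, chosen after seeing the data (0.15, adjusted p = 0.000455). Dnmt3l changed by -0.40 (95% interval -1.66 to 0.87, adjusted p = 0.664), and without replicate 1 of DNMT TKO shEmpty by -1.52 (adjusted p = 0.0436). Among the partners of maintenance 3 rose and 5 fell, led by Cdca7l (-0.44 ± 0.093), a relative of the HELLS activator CDCA7, and Hdac1 (-0.43 ± 0.062). Of the methyl-CpG readers 1 rose and 6 fell, led by Mbd2 (-0.96 ± 0.11) and Zfp57 (-0.64 ± 0.11), the zinc finger protein of imprinting control regions. Of the regulators 7 rose and 4 fell, with Dppa3, which shields DNA from UHRF1, at 2.61 ± 0.35 and Pramel7 at 0.87 ± 0.24. Of the S phase genes 11 fell and 1 rose, with Rrm2 at -0.85 ± 0.049. Over all genes tested, 20.5% were higher and 23.1% lower in this comparison. The mesoderm markers, a check on other cells, summed to 16.96 to 20.2 CPM against 4.21 to 6.05 in WT. Those of trophoblast summed to 20.2 to 33.7 CPM against 55.4 to 75.5, with 3 of 5 lower and 1 higher, and the part of both lists in these differences was not tested.

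Reads over repeats inside the targeted genes gave values at single positions along each gene. At 101783 bases from the start of Dnmt3a, a (CAAA)n repeat in an untranslated part of some transcripts held 60, 131 and 107 reads in WT shEmpty and 1 read in each DNMT TKO shEmpty library. With shKap1 it held 252, 161 and 179 reads in WT and 1, 3 and 1 in DNMT TKO. At 1 to 3 reads per library, a rise of the size seen for the gene could not be assessed at that end in DNMT TKO. In Dnmt3b, repeats in coding exons at 16645 and 21362 bases from the start kept 34.0% and 32.3% of the WT level, scaled to reads on genes, while a repeat in the 3′ UTR at 37285 bases kept 3.52%. Intronic repeats at 29183 and 29617 bases held 0 reads in all 6 DNMT TKO libraries, against 2 to 10 per WT shEmpty library. In Dnmt1 an intronic repeat at 39566 bases held 34, 49 and 51 reads in DNMT TKO shEmpty against 15, 17 and 17 in WT. Nearer the start, 3 intronic repeats at 18492 to 18843 bases held 0 to 5 reads in DNMT TKO shEmpty libraries and 2 to 11 in WT, while one at 21017 bases held 7, 16 and 10 against 2, 11 and 9.

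**Figure D4:**
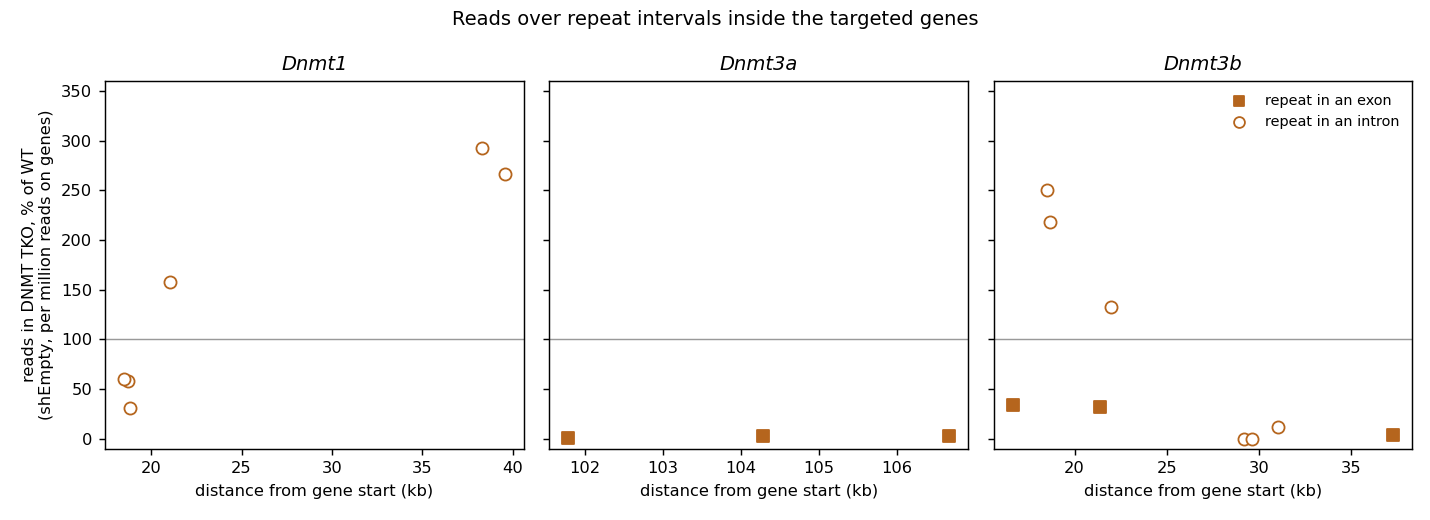
Reads over repeats in the 3 targeted genes in DNMT TKO shEmpty as a percent of WT shEmpty, scaled to reads on genes (y axis, line at 100), by distance from the gene start in kilobases (x axis), with squares for exonic and circles for intronic repeats of at least 50 reads. The 3 repeats of Dnmt3a lay at 1.06% to 3.25%, and the intronic repeats of Dnmt3b passed from 250% at 18525 bases to 0% at 29183 and 29617 bases.

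Loss of the TET genes was compared with the same WT shEmpty libraries. Of the 6 genes 1 fell, Dnmt3a, and 0 rose, beside a background of 27.2% (14.1% higher and 13.1% lower). Dnmt3a was at 36.8 ± 2.62 CPM in TET TKO (SD, n = 2) and 63.0 ± 10.98 in WT (SD, n = 3), a log2 change of -0.78 ± 0.16 (adjusted p = 0.00151 by edgeR's quasi-likelihood test with Benjamini-Hochberg adjustment). Dnmt3l had the largest difference, 1.498 (95% interval 0.15 to 2.84), with 162 and 150 CPM above all 3 WT libraries at 76.3, 47.1 and 43.5, but an adjusted p of 0.141. It passed with limma-voom (1.57, adjusted p = 0.0107), with only the libraries of both groups (1.49, adjusted p = 0.00546), without replicate 1 of DNMT TKO shEmpty, a library that is in neither group (adjusted p = 0.0386), and with replicate 1 of WT and of DNMT TKO left out (log2 change 1.79, adjusted p = 0.000160). Dnmt1 (log2 difference 0.00, adjusted p = 0.974), Uhrf1 (-0.05, 0.563), Hells (-0.04, 0.686) and Dnmt3b (-0.36, 0.260) did not pass. With replicate 1 of WT and of DNMT TKO left out, the alternative chosen after seeing the data, Dnmt3b passed at -0.18 (adjusted p = 0.00507).

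Between lines the effect of the knockdown differed for 1 of the 6 genes in DNMT TKO (Uhrf1) beside a background of 18.4%, and for 2 in TET TKO (Uhrf1 and Hells) beside 9.69%. For both genes the log2 effect was less negative in the mutant line. Genes with a higher log2 effect in the mutant line than in WT, be it a smaller fall or a larger rise, made up 10.6% and 4.64% of all genes tested, and those with a lower one 7.77% and 5.06%. Among the S phase genes 7 of 24 and 8 of 24 had a higher effect and 0 a lower one.

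Across the 16 libraries, log2 levels of Uhrf1 and Hells had a Pearson r of 0.95, and within groups one of 0.08. The points share lines, hairpins and depth, and the value is a description. Genes most like Dnmt1, Dnmt3a, Dnmt3b, Dnmt3l and Hells over the 16 libraries were Tpm3-rs7, Rps3a and Kpna2 for the first (r of 0.995, 0.993 and 0.993), and Stk40, Aldh1l2 and Kbtbd2 for Dnmt3a (0.987, 0.985 and 0.983). They were Ints7, Dnajc27 and Nedd4 for Dnmt3b (0.993, 0.988 and 0.988), and S100a10, Utf1 and Enox1 for Dnmt3l (0.927, 0.914 and 0.914). For Hells they were Naf1, Syce2 and Ddx27 (0.963, 0.958 and 0.957). Dnmt1, Dnmt3a and Dnmt3b are knocked out in DNMT TKO, so their r also ranks genes by how that line differs from the others.

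H3K4me3, a mark of active starts, was called within 1000 bases of the start of 5 of the 6 genes in both replicates, where 69.3% of the genes tested had it. The exception was Dnmt3l, whose peak in both replicates lay inside the gene at chr10:77512651-77513775 on mm9, 7959 to 9083 bases from the annotated start. H3K27me3, the Polycomb mark, was at the start of 0 of 6 in both replicates, beside 15.9% of the genes tested, and in replicate 2 alone at Dnmt3a and Dnmt3b. KAP1 and H3K9me3 regions came from ChIP-seq outside the samples described here, which the paper lists as previously published. KAP1 regions lay at the start of 1 of 6 genes (4.40% of the genes tested) and within 1 of 6 (15.3%), both times Dnmt3a. They were chr12:3806283-3806929, 276 to 922 bases after the start, and chr12:3825130-3825716, 19123 to 19709 bases after it in an intron. Regions of H3K9me3 lost on knockdown, H3K9me3 kept and imprinting control regions each met 0 of the 6, beside 7.96%, 0.620% and 0.133% of the genes tested. The stretches of these KAP1 regions printed above held 0 matches to TGCCGC, the ZFP57 motif, on either strand. This does not cover the rest of either region. Of 25740 central windows of KAP1 regions 18.9% held the motif, but the stretch near the start is not the centre of its region.

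**Figure D5:**
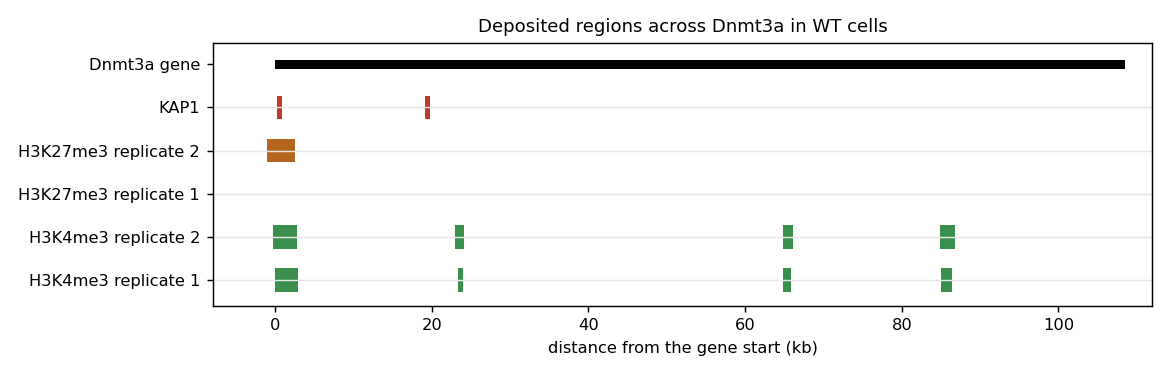
Regions deposited for WT cells across Dnmt3a by distance from its start in kilobases (x axis), with a line of bars for each ChIP list and the gene in black. KAP1 regions, from ChIP-seq published before, begin 276 and 19123 bases from the start, the first inside the H3K4me3 peak, and H3K27me3 was called there in replicate 2 only.

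5hmC, the oxidised form of methylcytosine made by TET enzymes, was read in replicate 1 of hMeDIP-seq, with 1 library per condition and no test. Over the KAP1 region near the Dnmt3a start, the input held 14 reads with shEmpty and 22 with shKap1, and the 5hmC library 15 and 4. On the log2 scale the enrichment over input changed on knockdown by -1.96, with a 95% counting interval of -3.69 to -0.23, beside a median of 0.64 over all KAP1 regions. The wider H3K4me3 region around it, chr12:3806001-3808799, held 55 and 80 input reads and 48 and 43 5hmC reads. Its log2 change was -0.35 (-1.12 to 0.41). At the intronic region the input held 15 and 10 reads and the 5hmC library 3 and 7, a log2 change of 1.88 (-0.18 to 3.93). Over 11 H3K4me3 regions of the 6 genes the median was 0.43, beside 0.39 over all H3K4me3 regions, and 10 of the 11 intervals held 0. The exception was the start of Uhrf1, chr17:56442043-56448174, where input reads were 138 and 144 and 5hmC reads 30 and 62 (log2 change 1.30, interval 0.59 to 2.00). In replicate 2, labels and file names do not give the libraries the same roles. Reads over H3K4me3 regions made up 7.88% and 9.50% of those counted in the 5hmC libraries of replicate 1 and 19.1% and 17.6% in its inputs. In replicate 2 they made up 6.25% and 7.19% in the libraries named 5hmC in the files and 19.3% and 18.5% in those named input, while the labels put one of each kind under both. With kinds told by these shares, a value read by the labels compares libraries of one kind and is not an enrichment over input. The value at the Dnmt3a start was 1.52 by the file names, opposite in sign to replicate 1, and -1.52 by the labels. That at the Uhrf1 start was 0.54 by the file names and -0.54 by the labels. Intervals cover counting error only.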

How the data were processed

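RNA-seq values are raw counts of reads per gene that the authors made from poly(A) RNA on mm9. The authors aligned with HISAT2 (2.0.1 in the submitters' processing notes), kept unique reads and counted exons by strand with featureCounts, which the file headers give as 1.5.0-p1 and the notes as 1.5.1. Counts of reads over repeats and of hMeDIP reads over regions were deposited by the authors from bedtools multicov. ChIP-seq lists hold a score per peak as deposited by the authors, from MACS 1.4, or SICER for H3K9me3, per the methods.

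Genes with at least 16 reads over the 16 libraries (20321 of 37991) were fitted with edgeR 4.0.16 in R 4.3.3 using TMM scaling, 1 coefficient per group, a robust quasi-likelihood F test (two-sided) and Benjamini-Hochberg adjustment. Passing means an adjusted p below 0.05, and a 95% interval is 1.96 SE each way. This normal quantile makes the interval narrower than one matched to the F test. Gene positions and symbols (37205 of 37991 identifiers) came from the annotation of NCBIM37, which is mm9. On simulated data for the knockdown in WT, 10 of 50 changes of 0.25 (log2), 33 of 50 of 0.5 and 47 of 50 of 1 were recovered. For the knockdown effect in TET TKO minus WT, 2 of 50, 16 of 50 and 35 of 50 changes of these sizes were recovered. Among unchanged genes, 5 were called in the first comparison and 1 in the second.

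The members and lists were chosen with earlier results of these data known. Named beside the 6 genes are the 3 genes most correlated with each (those of Uhrf1 are not reported here), and from each list the pair that changed most among those passing in the knockdown in WT and in DNMT TKO against WT, and a selection of those is printed. Same-numbered libraries of WT and DNMT TKO deviated together in every pair (r of 0.12 to 0.60), while those of TET TKO did not (-0.10 to 0.05). The deviations are from group means and replicate 1 stood apart in each of these groups. The r values therefore reflect what replicate 1 shared, and cannot tell whether numbers 2 and 3 pair the libraries. No source says what a number marks. Every pair of replicates differed by more than sampling noise. 5hmC ratios used a pseudocount of 1 read and were scaled to the reads over all deposited regions. Alternatives covered scaling, filters, limma-voom 3.58.1, DESeq2 1.42.0, the replicate block, the libraries fitted, and leaving out libraries. hMeDIP replicate 2 entered only as an alternative.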

Additional observations from a re-analysis of the deposited data

Results flagged for a closer look

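Uhrf1 fell less on Kap1 knockdown in DNMT TKO than in WT, with a difference of log2 effects of 0.26 (adjusted p = 0.0169 by edgeR's quasi-likelihood test with Benjamini-Hochberg adjustment), and less in TET TKO, with 0.38 (adjusted p = 0.00490). Hells fell less in TET TKO than in WT by 0.25 (adjusted p = 0.0477). Kap1 itself, measured as Trim28, fell less in DNMT TKO than in WT by 1.28 (adjusted p = 0.000803). These results stand here because the interaction between line and hairpin passed. Groups held 2 or 3 libraries, so single libraries were not tested as outliers.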

How the results depend on the processing

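Each of 42 values, a gene in a comparison, was recomputed under 25 alternatives, some of which left out only libraries outside that comparison. Of the 20 values that passed, 15 passed in all 25 and 0 changed direction. The other 5 were the falls of Dnmt3b in WT (lost in 16, adjusted p up to 0.188) and in DNMT TKO (lost in 3), the fall of Hells in TET TKO (lost in 17), and the smaller effects on Hells in TET TKO (lost in 15) and Uhrf1 in DNMT TKO (lost in 11). With total reads the change of Hells in TET TKO was -0.087 and that of Dnmt1 in WT -0.13. The causes were not tested. The replicate block, applied because same-numbered libraries of WT and DNMT TKO deviated together, changed no call of the 6 genes, and moved Dnmt3l on knockdown in DNMT TKO to 0.050. The block also grouped TET TKO libraries by number, although these did not deviate with the others. Its values for TET TKO comparisons are therefore no check on those calls.

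The number of the 6 genes whose knockdown effect differed in TET TKO was 1 with RLE scaling and 1 with no filter, and 1 to 2 with single libraries left out. For DNMT TKO it was 0 with no filter and 0 with only the 4 groups of both lines, and 0 to 1 with single libraries left out. Genes passing in TET TKO against WT numbered 2 with limma-voom and 2 with only the libraries compared, and 1 to 2 with single libraries left out. With replicate 1 of WT and of DNMT TKO left out, chosen after seeing the data, 5 passed for the knockdown in TET TKO, 5 in DNMT TKO against WT and 3 in TET TKO against WT. 5hmC at the Dnmt3a start was 1.52 with replicate 2 read by file names. By file names, the reading whose shares resemble those of replicate 1, replicate 2 gave 0.63 at the intronic region and a median of 0.30 over H3K4me3 regions. Read by labels it gave -0.63 and -0.30.

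Among the 42 values, signs turned only for 8 that did not pass in any of the 25 alternatives. The knockdown effect on Dnmt1 in DNMT TKO minus WT was -0.036 with RLE, -0.037 with no filter and with DESeq2, -0.039 with the 4 groups, -0.014 with total reads, -0.033 with filterByExpr, -0.0038 with limma-voom, -0.10 without replicate 1, and -0.050 to 0.020 with single libraries left out. Dnmt3l on knockdown in DNMT TKO was 0.052 with total reads, 0.18 with limma-voom, 0.30 without replicate 1 and -0.83 to 1.08 with single libraries left out, and in TET TKO 0.0054 with total reads. Its knockdown effect in TET TKO minus WT was -0.027 without replicate 1, and in DNMT TKO minus WT -0.47 to 1.44 with single libraries left out. Dnmt1 in TET TKO against WT was 0.035 without replicate 1 and -0.046 to 0.030 with single libraries left out. Hells in DNMT TKO against WT ranged from -0.019 to 0.033, and the effect on Dnmt3b in TET TKO minus WT from -0.026 to 0.34, with single libraries left out. Scaling to total reads moved the calls over all genes for the knockdown in DNMT TKO from 4002 higher and 3168 lower to 4642 and 2363, and in TET TKO from 3108 and 3070 to 3714 and 2320. Without replicate 1 of WT and of DNMT TKO, genes higher and lower went from 2865 and 2658 to 4176 and 4214 in TET TKO against WT, from 2159 and 1579 to 3026 and 3085 for the knockdown effect in DNMT TKO minus WT, and from 942 and 1028 to 2592 and 2464 in TET TKO minus WT. Leaving out 1 TET TKO library gave as few as 474 and 500 for the last, 1899 and 1633 in TET TKO against WT, and 2298 and 1762 for the knockdown in TET TKO, where the library that remained was assumed to vary like the other groups. Depth limited 5hmC, with 3 to 22 reads per library at the KAP1 regions.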
